A study of Homo sapiens with 4 samples.

Results

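The Krüppel-like factors (KLF) examined here were 10 genes, KLF2, KLF3, KLF4, KLF5, KLF6, KLF9, KLF10, KLF11, KLF13 and KLF15, taken by gene symbol from 18398 transcript values per library and measured in every library. RNA of Huh1 and Huh7, a pair of human hepatocellular carcinoma (HCC) cell lines, was sequenced after 48 h of transfection with 15 nM of CDCA8-1siRNA, which targets the mRNA of the mitotic protein CDCA8 (borealin), or of NCsiRNA, a control without an endogenous target. There were 4 libraries, 1 for each cell line and siRNA. No spread between replicate cultures could therefore be measured, and each cell line is 1 line. Values were RPKM, a measure of level in which the reads of a transcript are divided by its length and by the library depth.

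KLF proteins are transcription factors that bind GC-rich and CACCC sequences through C2H2 zinc fingers at the C terminus. They differ in the partners that their N-terminal parts recruit. KLF2, KLF4, KLF5 and KLF6 work with histone acetyltransferases and often act as activators, KLF3 recruits the corepressor CtBP, KLF9, KLF10, KLF11 and KLF13 recruit the corepressor SIN3A, and KLF15 is best known for the control of amino acid and glucose metabolism in liver and muscle. Several of them are immediate or early response genes, and in liver KLF6 has been studied as a tumor suppressor of HCC.

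The knockdown and the cell lines were checked first. CDCA8 fell to 24.3% of its control level in Huh1 and to 14.3% in Huh7. All 9 hepatocyte and liver tumor markers examined, ALB and GPC3 among them, were at 1 RPKM or more in every library, while the endothelial genes CDH5 and TEK were at 0 in every library and VWF and KDR summed to at most 0.0247 RPKM. The depth was between 12197606 and 13384836 reads per library. Summed over the hepatocyte markers, the level was 4515 RPKM with NCsiRNA and 3471 RPKM with CDCA8-1siRNA in Huh1, and 2679 and 1938 RPKM in Huh7. The sum was mostly ALB in Huh1 and mostly ALB and AFP in Huh7. In limma over both cell lines, 4.21% of all genes fell and 6.03% rose. Of the 9 markers, 6 (ALB, APOA1, APOB, SERPINA1, HNF4A and GPC3) fell and 0 rose. AFP in Huh1 (24.8 and 27.5 RPKM) and TTR in Huh7 (29.3 and 48.5 RPKM) were higher with CDCA8-1siRNA, and the other 8 in each cell line were lower. Among 5 fibroblast markers, summed levels were 12.1 and 25.8 RPKM in Huh1 and 282 and 373 RPKM in Huh7 with NCsiRNA and CDCA8-1siRNA, mostly LUM in Huh1 and LUM, COL1A1 and COL1A2 in Huh7, and DCN was at 0 in both Huh1 libraries. Of 5 leukocyte markers, the sums were 24.4 and 18.6 RPKM in Huh1 and 14.9 and 27.7 RPKM in Huh7, mostly CD68 and LYZ. LUM and LYZ rose in limma over both cell lines (limma adjusted p = 0.0130 and 0.0129), and the part of these genes in the KLF values was not tested.

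Promoters are shown for the 3 KLF genes that later passed the test over both cell lines, because their transcripts moved together. The sequences are the 250 bases before the RefSeq transcription start, on GRCh38.p14 and read 5′ to 3′ on the strand of the gene. Capitals mark the motifs searched on both strands, which may abut or overlap, namely the GC box with the letters GGGCGG, the CACCC box searched as CCACCC, the CCAAT box by its own letters, the TATA box searched as TATAAA, the cAMP response element (CRE) with the letters TGACGTCA, the AP-1 site with the letters TGACTCA, and the CArG box and MEF2 site by their names.
KLF2 promoter, chr19:16324576-16324825, plus strand: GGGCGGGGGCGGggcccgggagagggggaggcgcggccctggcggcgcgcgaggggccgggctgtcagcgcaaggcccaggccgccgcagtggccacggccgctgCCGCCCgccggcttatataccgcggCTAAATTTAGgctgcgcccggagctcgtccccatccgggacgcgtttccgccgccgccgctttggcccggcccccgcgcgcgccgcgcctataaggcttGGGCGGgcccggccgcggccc
KLF6 promoter, chr10:3785210-3785459, minus strand: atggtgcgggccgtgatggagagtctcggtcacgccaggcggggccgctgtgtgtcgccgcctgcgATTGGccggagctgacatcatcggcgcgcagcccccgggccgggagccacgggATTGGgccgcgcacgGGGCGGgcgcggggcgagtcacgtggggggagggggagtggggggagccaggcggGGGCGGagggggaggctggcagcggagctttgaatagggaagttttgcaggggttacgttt
KLF5, upstream start promoter, chr13:73054726-73054975, plus strand: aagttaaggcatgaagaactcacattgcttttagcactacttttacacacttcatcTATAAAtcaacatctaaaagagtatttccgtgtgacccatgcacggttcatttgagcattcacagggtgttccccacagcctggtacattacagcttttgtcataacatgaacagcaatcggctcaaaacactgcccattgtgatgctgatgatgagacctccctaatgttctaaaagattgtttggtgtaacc
KLF5, downstream start promoter, chr13:73058755-73059004, plus strand: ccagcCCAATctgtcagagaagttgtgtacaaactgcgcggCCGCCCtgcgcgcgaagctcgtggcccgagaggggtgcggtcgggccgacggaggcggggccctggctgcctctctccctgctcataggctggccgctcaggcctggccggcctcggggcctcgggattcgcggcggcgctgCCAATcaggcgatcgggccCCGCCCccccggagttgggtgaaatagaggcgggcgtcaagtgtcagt

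In windows of 250 bases before and 50 bases after the start, the KLF2 promoter held 6 GC boxes and 1 match to the MEF2 site, which lies 120 to 111 bases before the start. MEF2 proteins are known regulators of KLF2 downstream of the kinase ERK5. The KLF6 promoter held 2 GC boxes and 2 CCAAT boxes, and the downstream KLF5 promoter also held 2 of each. The upstream KLF5 promoter held a TATA box and no other motif of the list. A GC box occurs in 45% of the 35116 promoters searched in the same way, a CCAAT box in 34.6%, a CACCC box in 34.3%, a TATA box in 11.5%, an AP-1 site in 4.95%, a MEF2 site in 2.99%, a CRE in 1.85% and a CArG box in 1.29%. Promoter windows were searched for 8 of the 10 KLF genes. The search of members left out chromosome 8, where KLF10 lies, and no window of KLF3 was searched. Of the 8 genes, 7 held a GC box, 5 a CCAAT box and 0 an AP-1 site or a CArG box. Held by 1 gene each were a MEF2 site (KLF2), a TATA box (KLF5), a CRE (KLF11) and a CACCC box (KLF13). The shares over all promoters count single windows, while a KLF gene was counted if any of its windows held the motif. KLF5 and KLF11 had 2 windows each, of 10 in all. All matches describe the letters and not binding.

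KLF2 is known for the quiescence of endothelial cells and T cells. The gene (chromosome 19, 16324817 to 16327874 on GRCh38) was among the lower members. The RPKM of KLF2 was 3.08 with NCsiRNA and 6.38 with CDCA8-1siRNA in Huh1, on about 68 and 139 reads. In Huh7 it was 2.42 and 5.09 RPKM, on about 49 and 103 reads. Both libraries with CDCA8-1siRNA were thus above both control libraries. The ratio was 2.07 in Huh1 and 2.11 in Huh7. The exact 95% interval from counting of reads, which covers no variation between cultures, was 1.54 to 2.81 in Huh1 and 1.47 to 3.0 in Huh7. RNA came from whole cultures, so a change in the share of cells that express a gene and a change in its RNA per cell cannot be told apart.

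KLF6, a ubiquitous zinc finger activator often lost or mis-spliced in tumors, lies on chromosome 10 from 3775996 to 3785281. Its level was 9.58 RPKM with NCsiRNA and 20.1 RPKM with CDCA8-1siRNA in Huh1. In Huh7 the levels were 22.5 and 42.8 RPKM. The value with CDCA8-1siRNA was higher in each cell line, and the Huh1 value with CDCA8-1siRNA stayed under the Huh7 control. The ratio was 2.09 (95% counting interval 1.89 to 2.32) in Huh1 and 1.90 (1.78 to 2.04) in Huh7. KLF6 had more reads than KLF2, about 582 and 1201 in Huh1 and 1246 and 2384 in Huh7, and its interval is narrower. The deposited value is that of 1 transcript, so splice forms of KLF6 could not be separated.

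KLF5, an activator of proliferation in epithelial cells, lies on chromosome 13 from 73054976 to 73077542. It was at 23.1 and 38.2 RPKM in Huh1 with NCsiRNA and CDCA8-1siRNA and at 12.2 and 16.5 RPKM in Huh7. Both Huh1 values were above both Huh7 values. The ratio was 1.65 (95% counting interval 1.52 to 1.78) in Huh1 and 1.36 (1.21 to 1.53) in Huh7, the former the larger.

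KLF4, one of the factors used to reprogram cells to pluripotency, was at 7.23 and 8.97 RPKM in Huh1 and at 3.07 and 3.75 RPKM in Huh7. The ratio was 1.24 (1.06 to 1.46) in Huh1 and 1.22 in Huh7, where the counting interval of 0.942 to 1.58, on 110 and 135 reads, includes 1. A change of KLF4 in Huh7 was therefore not detectable at this depth.

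KLF3, which represses with CtBP, had close values in all 4 libraries. It was at 13.5 and 15.1 RPKM in Huh1 and at 12.3 and 15.3 RPKM in Huh7. The ratios of 1.11 (1.02 to 1.21) and 1.24 (1.13 to 1.36) had intervals just above 1.

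Among the genes of KLF proteins that recruit SIN3A, KLF10 and KLF13 had the higher levels. KLF10, induced early by TGF-β, was at 17.1 and 21.1 RPKM in Huh1 and at 29 and 37.0 RPKM in Huh7. Its ratios were 1.24 (1.12 to 1.37) and 1.28 (1.18 to 1.39). KLF11, its closest relative, was at 3.97 and 5.42 RPKM in Huh1 and at 3.38 and 3.60 RPKM in Huh7. The ratio of KLF11 was 1.37 (1.14 to 1.64) in Huh1, and in Huh7 it was 1.07 with an interval of 0.858 to 1.33 that includes 1.

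KLF13, known as an activator of CCL5 in lymphocytes, did not follow these genes. It was at 19.3 and 19.2 RPKM in Huh1 and at 10.2 and 9.42 RPKM in Huh7, with ratios of 0.996 (0.931 to 1.07) and 0.920 (0.834 to 1.02). KLF9, a target of glucocorticoid and thyroid hormone receptors, was under 1 RPKM in Huh1, at 0.231 and 0.451 RPKM on about 16 and 31 reads. In Huh7 KLF9 was at 2.71 and 2.47 RPKM. The ratio in Huh1 was 1.95 with a wide interval of 1.04 to 3.85, and in Huh7 it was 0.913 (0.730 to 1.14).

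KLF15, which supports gluconeogenesis and amino acid breakdown in liver, was the 1 member whose interval lay below 1 in a cell line. In Huh1 its level was 2.43 RPKM with NCsiRNA and 0.690 RPKM with CDCA8-1siRNA, on 82 and 23 reads, a ratio of 0.285 (0.171 to 0.456). In Huh7 KLF15 was under 1 RPKM in both libraries, at 0.325 and 0.355 RPKM on 10 and 11 reads. That ratio of 1.09 had an interval of 0.422 to 2.87, so neither a rise nor a fall of KLF15 could be seen in Huh7 at this depth.

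**Figure D1:**
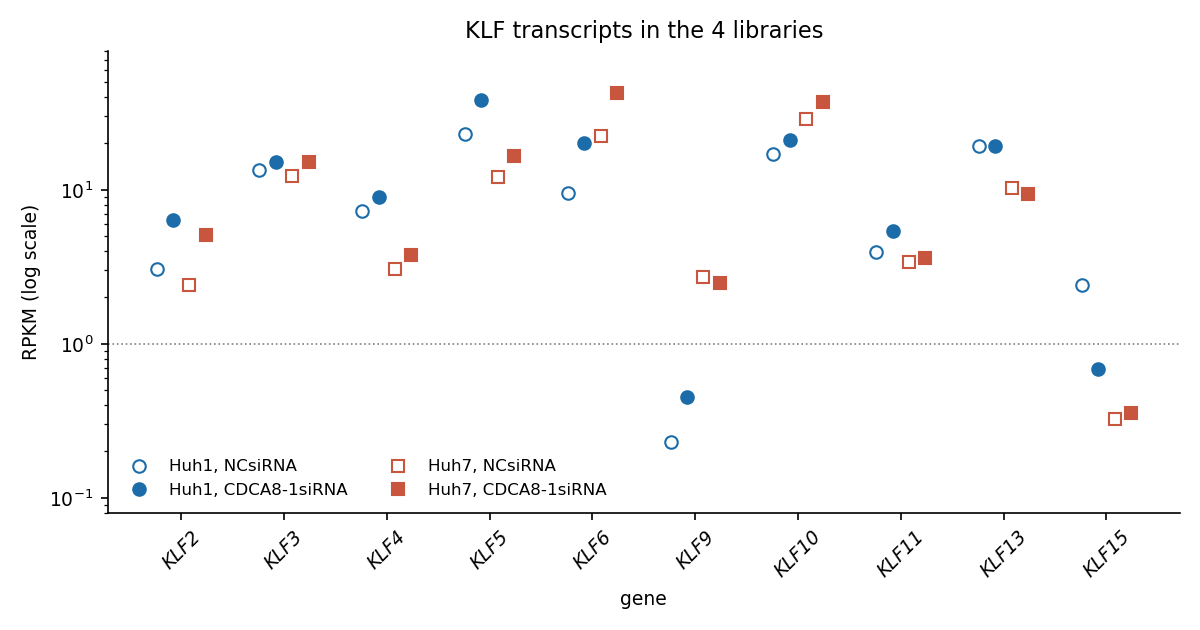
RPKM (log scale) of the 10 KLF genes in the 4 libraries, circles for Huh1 and squares for Huh7, open for NCsiRNA and filled for CDCA8-1siRNA, with 1 library per point and a dotted line at 1 RPKM. KLF2 and KLF6 lie higher with CDCA8-1siRNA in both cell lines, KLF13 keeps its place, KLF9 is under the line only in Huh1, and KLF15 is above it only in Huh1 with NCsiRNA.

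Ordered by level in the Huh1 control, KLF5 was first, followed by KLF13, KLF10, KLF3, KLF6, KLF4, KLF11, KLF2, KLF15 and KLF9. In the Huh7 control KLF10 was first, followed by KLF6, KLF3, KLF5, KLF13, KLF11, KLF4, KLF9, KLF2 and KLF15. KLF3 and KLF5 differed by little in Huh7, at 12.3 and 12.2 RPKM. With 1 library per condition no neighbours in these orders can be separated by replicate error. The sum over the 10 genes was 99.6 RPKM in Huh1 and 98.1 RPKM in Huh7 with NCsiRNA, and 135.5 and 136.3 RPKM with CDCA8-1siRNA. The summed level was thus 1.36 times and 1.39 times the control. In each cell line most of the gain came from KLF5 and KLF6, and KLF13 rose in neither.

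On the log2(RPKM + 1) scale, which makes the differences of low genes smaller than their ratios, a 2-fold difference was called in 0 members upward and 1 downward (KLF15) among the 9 with at least 1 RPKM in a Huh1 library. Over all 10940 genes passing that filter, 0.32% were called higher and 0.174% lower in Huh1. In Huh7, 0 members of 9 were called in either direction, against 0.873% higher and 0.7% lower of 11565 genes. By the plain RPKM ratio, chosen after seeing the data, KLF2 and KLF6 were at least 2-fold higher in Huh1, KLF15 at least 2-fold lower, and KLF2 at least 2-fold higher in Huh7. The plain ratio called 1.2% of all genes higher and 0.558% lower in Huh1, and 2.52% higher and 1.46% lower in Huh7. KLF2 was the 1 member at or above this ratio in both cell lines. None of these counts has a test, as each compares 1 library with 1 library.

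The counting interval of the ratio lay above 1 for 8 of 10 members in Huh1, for 5 in Huh7 and for the same 5 (KLF2, KLF3, KLF5, KLF6 and KLF10) in both. It lay below 1 for KLF15 in Huh1 and for 0 members in Huh7. The share of all genes with such intervals was not computed, so these counts have no background. The interval covers counting error only, so a small shift of a gene with many reads can clear 1. The median log2 fold change of members passing the filter was 0.29 in both Huh1 and Huh7, beside 0.02 and 0.03 over all genes tested. KLF6 ranked 40th and KLF2 75th from the top of 10940 genes by log2 fold change in Huh1, and 151st and 193rd of 11565 genes in Huh7. KLF5 ranked 158th in Huh1 and 1342nd in Huh7. KLF15 ranked 10923rd of 10940 in Huh1, near the bottom.

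**Figure D2:**
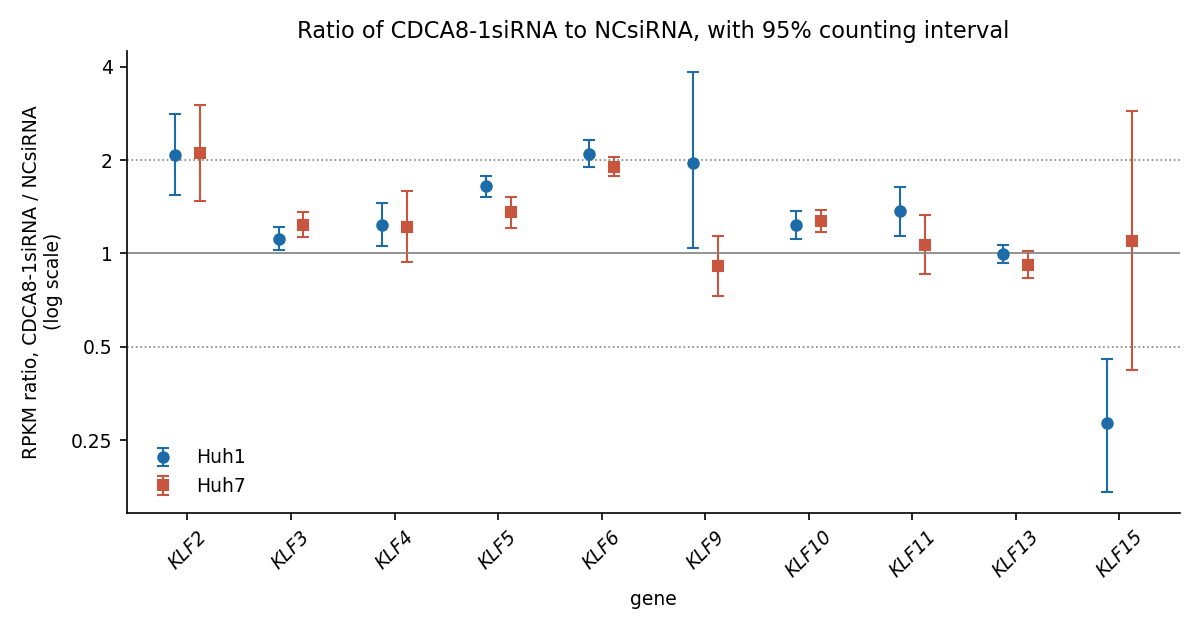
RPKM ratio of CDCA8-1siRNA to NCsiRNA (log scale) for each KLF gene in Huh1 (circles) and Huh7 (squares), with bars for the exact 95% interval from counting of reads, a line at 1 and dotted lines at 2-fold. KLF2 and KLF6 sit near 2 in both cell lines, KLF5 sits at 1.65 and 1.36, KLF13 sits at 0.996 and 0.920, and KLF15 sits at 0.285 in Huh1 with a bar across 1 in Huh7.

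A test was possible with the cell lines taken as a pair. It used limma across 10357 genes with cell line as a covariate and Benjamini-Hochberg adjustment. It asks whether the mean change over the 2 cell lines differs from 0, not whether their changes were equal. It does not measure the spread between repeated transfections. Of the 8 members tested, 3 rose (KLF2, KLF5 and KLF6), 0 fell and 5 did not pass, beside 6.03% of all genes that rose and 4.21% that fell. For KLF6 the mean log2 fold change was 0.95 (SE 0.10, limma adjusted p = 0.00129), higher in 2 of 2 cell lines. For KLF2 it was 0.84 (SE 0.12, limma adjusted p = 0.00531), also higher in 2 of 2. The study named KLF2 among the raised genes from these libraries, so its p is not independent evidence of its direction. The log2 fold change of KLF5 was 0.55 (SE 0.11, limma adjusted p = 0.0153), higher in 2 of 2. KLF6 had the 28th smallest p of all genes tested, KLF2 the 131st and KLF5 the 373rd.

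The other 5 tested members did not pass. KLF10 had a log2 fold change of 0.32 (limma adjusted p = 0.0677). KLF4 (0.25), KLF11 (0.22) and KLF3 (0.22) had limma adjusted p-values of 0.222, 0.337 and 0.228. KLF13 had -0.06 and a limma adjusted p of 0.776. KLF9 and KLF15 were left out because each was under 1 RPKM in both libraries of 1 cell line. With genes kept that reached 1 RPKM in any library, a filter added after seeing the data, KLF15 had -0.49 (limma adjusted p = 0.289) and KLF9 had 0.07 (limma adjusted p = 0.847). The calls of KLF2, KLF5 and KLF6 were all lost without a filter on low values, where limma called 0 of all genes (2050 had an unadjusted p under 0.05) and each of the 3 had an adjusted p of 0.445. They were lost as well without the cell line covariate, where limma called 0 of all genes (89 had an unadjusted p under 0.05) and each had an adjusted p of 1. In the fit with both, 4 members, KLF10 the fourth, had an unadjusted limma p under 0.05 upward and 0 downward. Of all 10357 genes tested, 2694 had such a p in either direction.

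Responses differed between Huh1 and Huh7 for some members. Taken as Huh7 minus Huh1 on the log2(RPKM + 1) scale, the difference exceeded 2 SD of counting for KLF15, KLF5 and KLF9, 3 of 10 members. It was 1.05 for KLF15 (counting SD 0.231), with log2 fold changes of -1.02 in Huh1 and 0.03 in Huh7. KLF15 was at 0.325 RPKM in the Huh7 control, which leaves little room for a fall on this scale. Its ratio intervals, 0.171 to 0.456 in Huh1 and 0.422 to 2.87 in Huh7, overlap. Passing 2 SD therefore does not show that KLF15 responded differently. For KLF5 the difference was -0.29 (counting SD 0.0965), with 0.70 in Huh1 and 0.41 in Huh7. For KLF9 it was -0.33 (counting SD 0.156), with 0.24 in Huh1 and -0.09 in Huh7. For KLF2 it was -0.02 (counting SD 0.253), with 0.85 in Huh1 and 0.84 in Huh7. KLF6 had -0.09 (counting SD 0.0829), with 0.99 and 0.90. KLF9 was under 1 RPKM in both Huh1 libraries, and KLF15 in both Huh7 libraries. With 0.1 RPKM added in place of 1 RPKM, the difference moved to 1.78 for KLF15 and to -0.86 for KLF9. These differences between cell lines were not tested, since no residual degree of freedom is left for them. The share of all genes with a difference over 2 SD of counting was not computed. SP1, SP3 and KLF7, outside the 10 members, exceeded it too, so such a difference is not particular to the members.

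**Figure D3:**
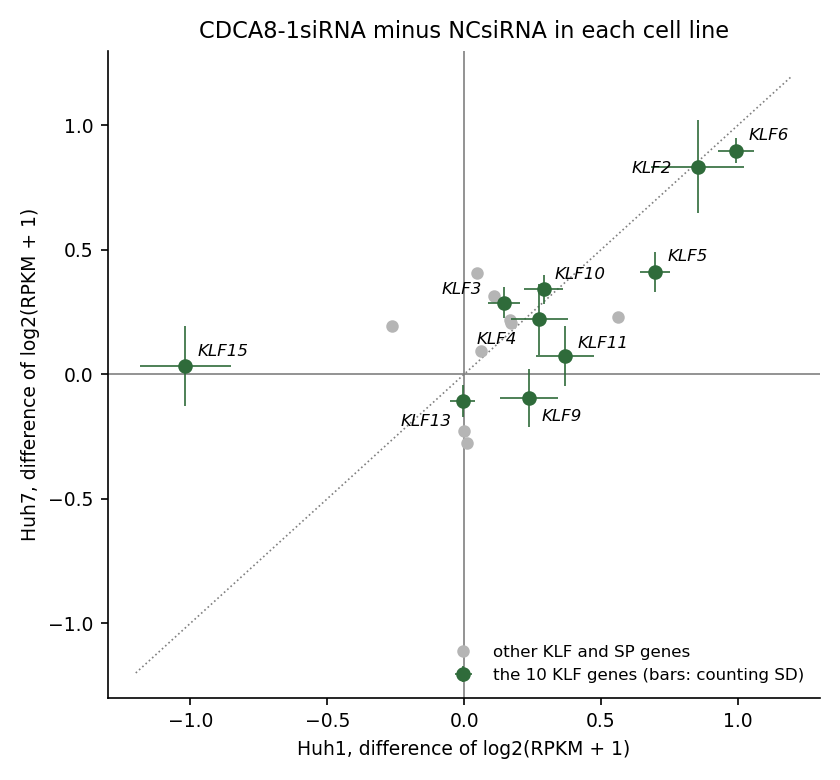
Difference of log2(RPKM + 1), CDCA8-1siRNA minus NCsiRNA, in Huh1 (horizontal) and Huh7 (vertical) for the 10 KLF genes (dark, bars of 1 counting SD) and the 9 other KLF and SP genes passing the filter in both cell lines (grey), with a dotted line of equal change. KLF2 and KLF6 lie at the upper right near the line, KLF5 lies below it at 0.70 and 0.41, and KLF15 lies far left at -1.02 and 0.03.

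The levels of the KLF genes also set the cell lines apart. In the cell line term of the same limma fit, 6 of 8 members were called, 2 higher in Huh7 and 4 higher in Huh1. That term called 39.1% of all genes higher and 28.7% lower in Huh7, so a call was common. KLF6 and KLF10 were higher in Huh7, by a log2 difference of 1.11 (limma adjusted p = 7.94e-06) and 0.76 (limma adjusted p = 8.20e-05). Higher in Huh1 were KLF4 at -1.04, KLF5 at -1.02 and KLF13 at -0.91 for Huh7 minus Huh1 (limma adjusted p = 4.07e-05, 2.61e-05 and 4.20e-05). KLF11 lay at the threshold with -0.33 (limma adjusted p = 0.050) and missed it under 3 other settings. Its difference was -0.18 between the NCsiRNA libraries and -0.48 between the CDCA8-1siRNA libraries, each without a test. KLF2 had -0.27 (limma adjusted p = 0.0828) and KLF3 had -0.05 (limma adjusted p = 0.671). Under quantile normalization the median over all genes moved from 0.10 to -0.03, and KLF2 then passed the test at -0.49.

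With NCsiRNA, KLF9 and KLF15 had the widest gaps between the cell lines among the 10 members. In those libraries KLF9 was 11.7 times as high in Huh7 as in Huh1 (95% counting interval 7.02 to 21), and with CDCA8-1siRNA 5.48 times (3.69 to 8.29). KLF15 was 7.47 times as high in Huh1 as in Huh7 with NCsiRNA (3.86 to 16.2). With CDCA8-1siRNA it was 1.94 times as high, with an interval of 0.910 to 4.42 that includes 1, a smaller gap than that of KLF4, KLF5, KLF6 or KLF13 in the same libraries. Under the filter on any library, KLF9 was higher in Huh7 by 1.43 (limma adjusted p = 9.06e-05) and KLF15 lower by a log2 difference of -0.84 (limma adjusted p = 0.0145).

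**Figure D4:**
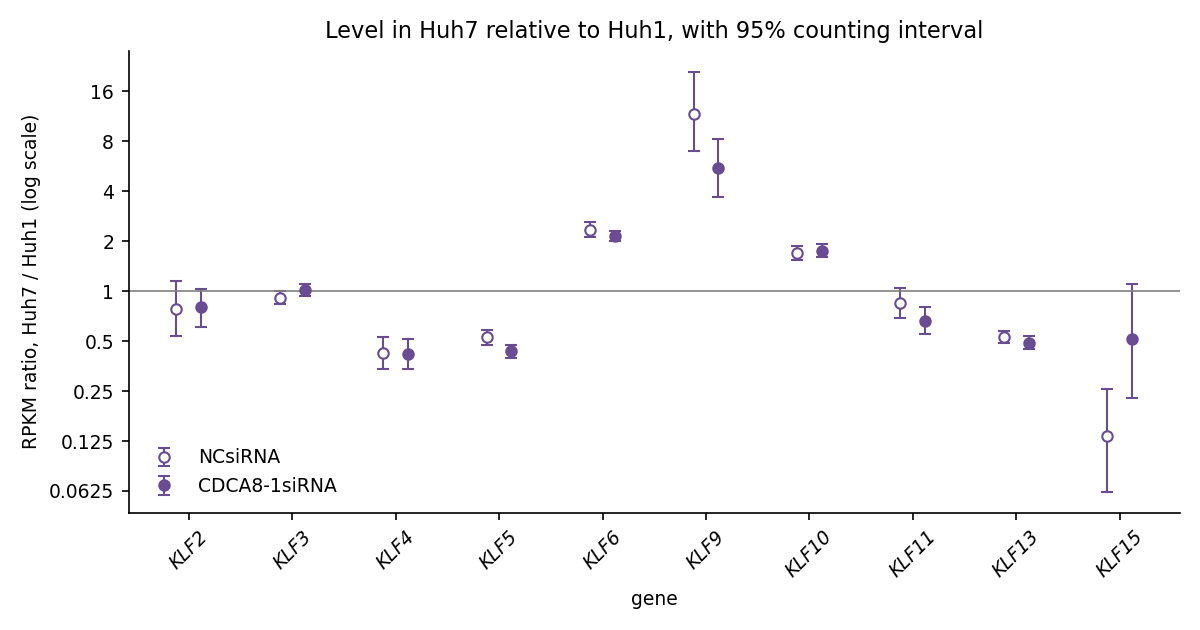
RPKM ratio of Huh7 to Huh1 (log scale) for each KLF gene with NCsiRNA (open) and CDCA8-1siRNA (filled), with bars for the exact 95% interval from counting of reads and a line at 1. KLF6, KLF9 and KLF10 lie above the line, KLF4, KLF5 and KLF13 lie below it, and KLF15 moves toward the line with CDCA8-1siRNA.

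The transcripts of the KLF genes were also compared in features that took no part in their choice, from GENCODE 29 on GRCh38. The KLF2 transcript has a GC content of 65.2%, which 3.22% of 9989 tested genes reach, and a 3′UTR of 843 bases. KLF13 has the longest 3′UTR of the 10, 5600 bases, which 4.51% of tested genes reach. All 10 have few exons, 2 to 6, beside a median of 9 over tested genes. AUUUA, the pentamer of AU-rich elements that mark short-lived mRNAs, was counted as ATTTA. Per kilobase of 3′UTR it occurred 3.56 times in KLF2, 3.02 times in KLF5 and 1.69 times in KLF6, beside a median of 1.67 over tested genes. Over all 10 members the range was from 0.893 per kilobase in KLF13 to 3.66 in KLF15. The longer TATTTAT occurred in KLF2, KLF5, KLF6 and KLF11, and in 32.1% of tested genes. The 4 of 10 members that hold it, a share not far from that of tested genes, are the 3 that rose in limma and KLF11, which was not called. This describes 10 genes, and a relation between the motif and the rise was not tested.

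Other genes of the family gave a point of reference. Of 17 further KLF and SP genes listed, 16 were measured, 9 were tested and 0 rose or fell in limma. Of these 9, 1 (KLF7) had an unadjusted limma p under 0.05, beside 2694 of all 10357 genes tested. KLF7, a relative of KLF6, came nearest, at 5.70 and 8.90 RPKM in Huh1 and 5.11 and 6.17 RPKM in Huh7, with a log2 fold change of 0.40 (limma adjusted p = 0.0814). SP3 and SP1, ubiquitous GC box factors, were the highest. SP3 was at 28.6 and 28.5 RPKM in Huh1 and 37.4 and 31.9 RPKM in Huh7. SP1 was at 26.4 and 26.6 RPKM in Huh1 and 15.4 and 12.6 RPKM in Huh7, and KLF16 was between 10.5 and 13.6 RPKM. The median log2 fold change of the tested genes was 0.19, and for the 8 tested KLF members above it was 0.28. KLF1, KLF8, KLF14 and KLF17 were at no more than 0.0558 RPKM in every library, KLF14 at 0 in all 4.

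Of 10 cofactors that KLF proteins are known to recruit, 9 were tested, 1 rose and 1 fell. Over all genes tested, 6.03% rose and 4.21% fell. HDAC1, a histone deacetylase of SIN3 complexes, rose and was at 75.5 and 104.4 RPKM in Huh1 and 87.5 and 107.7 RPKM in Huh7 (log2 fold change 0.38, limma adjusted p = 0.0265). HDAC3, a deacetylase of another corepressor complex, fell and was at 30.8 and 22.1 RPKM in Huh1 and 30.6 and 19.4 RPKM in Huh7 (log2 fold change -0.55, limma adjusted p = 0.0116). CTBP1, HDAC2 and the acetyltransferase gene EP300 were not called, with log2 fold changes of -0.003, -0.05 and 0.09.

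Regulators upstream of KLF genes or of their turnover gave 0 calls in limma among 8 tested of 9 listed. Of these 8, 3 (FBXW7, WWP1 and NR3C1, all higher) had an unadjusted limma p under 0.05, beside 2694 of all 10357 genes tested. The ERK5 pathway that acts on KLF2 comprises the kinases MAP2K5 and MAPK7 and the MEF2 factors. MAPK7 was at 9.56 and 9.67 RPKM in Huh1 and 9.18 and 11.3 RPKM in Huh7. MEF2C was not tested, being at 0.0129 and 0.0331 RPKM in Huh1 and at 5.64 and 9.29 RPKM in Huh7. The ubiquitin ligase genes WWP1 and SMURF1, whose proteins act on KLF2 or KLF5, had log2 fold changes of 0.28 and 0.06, and the glucocorticoid receptor gene NR3C1, a regulator of KLF9 and KLF15, had 0.29 (limma adjusted p = 0.0932, 0.726 and 0.101).

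Of 16 genes known to respond to KLF proteins in other cells, 8 were tested, 1 rose and 1 fell. The shares over all genes tested were 6.03% and 4.21%. EDN1, the endothelin gene that KLF2 represses in endothelium, was at 10.3 and 18.4 RPKM in Huh1 and 17.8 and 25.7 RPKM in Huh7 (log2 fold change 0.64, limma adjusted p = 0.00934). TXNIP, a metabolic stress gene, was at 4.88 and 3.65 RPKM in Huh1 and 27.3 and 19.1 RPKM in Huh7 (log2 fold change -0.41, limma adjusted p = 0.0440). CDKN1A, the p21 gene to which KLF4 and KLF6 bind, differed in direction, at 18.6 and 11.5 RPKM in Huh1 and 3.66 and 5.63 RPKM in Huh7. CCND1, the cyclin D1 gene, did so too, at 37.9 and 50.3 RPKM in Huh1 and 101 and 79.2 RPKM in Huh7. SMAD7, an inhibitor of TGF-β signaling, was at 9.87 and 8.77 RPKM in Huh1 and 14.7 and 13.7 RPKM in Huh7. BCAT2, a KLF15 target in muscle, was at 35.3 and 31.6 RPKM in Huh1 and 28.8 and 35.1 RPKM in Huh7. Among other endothelial targets of KLF2, NOS3 was at no more than 0.0137 RPKM in all 4 libraries. THBD was at 0.259 and 0.545 RPKM in Huh1 and 0.264 and 0.545 RPKM in Huh7, on 14, 29, 13 and 27 reads. PLAU, the urokinase gene, was at least 2-fold lower by plain ratio in Huh7, at 1.04 and 0.514 RPKM.

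Across all 10357 tested genes, those whose pattern over the 4 libraries lay nearest to KLF2 were CDK6, FOS, CAV2, ZNF616 and ZNF184. The measure was the Euclidean distance of log2(RPKM + 1) centred on the mean of each gene, and it was 0.139, 0.168, 0.182, 0.183 and 0.196 in that order. FOS, an immediate early gene, was at 1.73 and 3.83 RPKM in Huh1 and 1.06 and 2.53 RPKM in Huh7. CDK6, a kinase of the G1 phase, was at 11.6 and 18.9 RPKM in Huh1 and 8.85 and 16.9 RPKM in Huh7. A likeness over 4 libraries is a description and rests on few points.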

How the data were processed

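Libraries were made from total RNA with the TruSeq RNA kit, 1 per cell line and siRNA. The authors deposited 1 RPKM value per RefSeq transcript without naming the unit, which was deduced from the values: low values times transcript length are whole multiples of 1 constant per library. The processing notes of the submitters list CASAVA 1.8.2, TopHat2 2.0.9 and hg19. The order and settings of these tools and the annotation are not given in the sources used here. The study selected genes at 2-fold with a resampling ANOVA, whose design is not described, and limma was used here instead.

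Reads behind a member were RPKM times transcript length over that constant. The length was sought within 20% of the GENCODE 29 length until all 4 values were whole multiples of up to 1/60 of a read, which gave a length for 8 of 10 members, 4 of them in whole reads. KLF6 and KLF9 used the GENCODE length, so their read numbers and intervals are approximate. Exact intervals (Clopper-Pearson, 95%) cover counting error only.

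Fold changes were differences of log2(RPKM + 1) for genes with at least 1 RPKM in a library compared, called at 2-fold. limma 3.58.1 in R 4.3.3 (lmFit, eBayes with trend) was fitted to 4 libraries with siRNA and cell line as terms, over genes passing the filter in both cell lines, with 1 residual and 8.29 prior degrees of freedom and Benjamini-Hochberg adjustment. Called means an adjusted p under 0.05. The fit was tested on simulated data. Python 3.11.15, numpy 2.4.6, pandas 2.3.3, scipy 1.17.1 and matplotlib 3.10.9 were used.

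Genes named were all members, every other listed gene with an adjusted p under 0.05 or a 2-fold change, and up to 3 others per list with the highest mean RPKM, with the 5 genes nearest to KLF2. Genes of the lists outside this rule, such as MAPK7, THBD, NOS3, MEF2C, KLF7, FBXW7 and CDKN1A, were named after their values were seen. The members and lists were chosen with earlier results of these data known. Alternatives were a pseudocount of 0.1 RPKM, no filter, a minimum of 5 RPKM, quantile normalization, upper quartile scaling, no cell line covariate, no trend, and the cell line difference from the NCsiRNA or the CDCA8-1siRNA libraries alone. The plain ratio and the filter on any library were added after seeing the data. Sequences and promoters are from RefSeq, and transcripts from GENCODE 29 on GRCh38, not the build of the submitters.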

Additional observations from a re-analysis of the deposited data

Results flagged for a closer look

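The direction of KLF9 and of KLF15 was not the same in the 2 cell lines. Each direction compares 1 library with 1 library, and the difference was not tested. For KLF9 the log2 fold change was 0.24 in Huh1, where it was under 1 RPKM in both libraries, against -0.0949 in Huh7. For KLF15 it was -1.02 in Huh1 against 0.0328 in Huh7, where KLF15 rested on 10 and 11 reads.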

How the results depend on the processing

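The cell lines served as the pairs in limma. No replicate block was possible because the labels carry no replicate numbers, and with 1 library per condition no replicate could be left out. In Huh1, 1 member was called 2-fold in the report, 3 with a pseudocount of 0.1 RPKM, 3 by plain RPKM ratio and 0 (KLF15 then missing) with a minimum of 5 RPKM. In Huh7, 0 members were called, 1 with a pseudocount of 0.1 RPKM and 1 by plain ratio. Over both cell lines, limma called 3 members, 0 without a filter and 0 without the cell line covariate, where it called 0 of all genes in place of 1061, and the cause was not tested. With quantile normalization it called 4 members, KLF10 being the fourth (adjusted p = 0.0464), and 1546 genes in all. In the cell line term, KLF11 missed the threshold with a pseudocount of 0.1 RPKM (limma adjusted p = 0.0558), without a filter (0.222) and with the filter on any library (0.0518), and KLF2 passed it with a minimum of 5 RPKM (0.0448), with quantile normalization (0.00263) and without the trend (0.0469). Of the fold changes for single members within a cell line and their differences between cell lines, 9 moved by more than their counting SD and the others by less. Taken from the NCsiRNA or the CDCA8-1siRNA libraries alone, the cell line difference was -0.87 or -1.16 for KLF5 and -0.18 or -0.48 for KLF11. No alternative that was run reversed a direction of a called value. The depth limits KLF15 in Huh7 and KLF9 in Huh1 most, at 10 to 31 reads.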
